A study of Rattus norvegicus with 11 samples.

Results

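The genes described here belong to the extracellular matrix: Fn1, Postn, Tnc, Thbs1, Thbs2, Tgfbi, Sparc, Bgn, Dcn and Lox. They were chosen by symbol, with earlier results of these data known, and all 10 were found among the 30560 genes listed for 11 rats. Adult male Sprague-Dawley rats had received collagenase VII-S in the right striatum, an enzyme that opens vessel walls and so makes an intracerebral hemorrhage. The common hemorrhage group (IC, 3 rats) was given 0.2 U in 1.0 μL and the severe hemorrhage group (IS, 3 rats) 0.6 U in 3.0 μL. The aspiration group (IS-HA, 3 rats) was given the IS dose and had 150 μL of hematoma drawn off under anesthesia at 6 h. The Normal group (2 rats) had neither injection nor aspiration, so it is not a sham control, and the needle track and saline cannot be told apart from the hemorrhage in any comparison with it. Poly(A) RNA of the striatum on the injected side, or the corresponding striatum in Normal rats, was sequenced at day 3, 1 library per rat.

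Matricellular proteins are secreted into the matrix and act there on cells more than they carry load. Tenascin-C, periostin, the thrombospondins and SPARC belong to this kind, and several of them are scarce in healthy adult tissue and appear at wounds. Fibronectin is a structural glycoprotein that cells assemble into fibrils. The small proteoglycans biglycan and decorin bind collagen fibrils, and lysyl oxidase crosslinks collagen and elastin. In the injured brain such proteins are known from the rim of the lesion, where astrocytes, vessel-associated fibroblasts and infiltrating phagocytes meet.

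The libraries held 6701301 to 18817645 counts, with the IS-HA rat numbered 2 and the IS rat numbered 4 the smallest. No pair of libraries was identical. Of 10 neuron markers, 9 fell in IS against Normal and none rose, beside 17% of all genes lower. All 8 microglia and macrophage markers rose, beside 18.8% of all genes higher. In RNA from whole tissue, more cells of a type and more RNA per cell cannot be told apart. The IS-HA rat numbered 2 was the highest of the 11 rats for 21.7% of the 15742 genes tested, and the IS rat numbered 4 for 18.8%.

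In normal striatum these 10 genes were unequal in level. Levels are given in TPM, a transcript abundance scaled to the same total in each rat, which is corrected for gene length and can be compared between genes. Sparc, a collagen-binding glycoprotein, stood far above the rest at 422 ± 80.3 TPM (SD, n = 2), and made up 86.3% of the summed level of the 10 genes. Bgn followed at 31.8 ± 5.39 TPM. Dcn at 10.9 ± 0.960 and Fn1 at 9.78 ± 0.606 TPM had overlapping ranges, and Tnc came next at 6.67 ± 3.54 TPM. Tgfbi lay at 2.45 ± 0.602 TPM, and Thbs1, Lox and Thbs2 at 1.33, 1.18 and 0.888 TPM, with overlapping ranges. Postn was the lowest, at 0.441 and 0.451 TPM, which rested on 12 counts in each Normal rat.

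The order of the low and middle genes was different in hemorrhage. Sparc stayed first in every group, but its share of the sum was 70.1% in IC, 53.6% in IS and 69.0% in IS-HA. The other 9 genes together summed to 65.5 ± 11.6 TPM in Normal, 273 ± 103 in IC, 503 ± 196 in IS and 302 ± 36.4 TPM in IS-HA. In IS the places behind Sparc were taken by Bgn at 111, Thbs1 at 110, Fn1 at 95.4 and Tgfbi at 94.1 TPM, whose ranges overlapped from each one to the next. Postn, last in Normal, stood above Tnc in IS at 28.8 ± 4.63 against 24.3 ± 11.4 TPM, with overlapping ranges. Thbs2 and Lox were the lowest in each hemorrhage group.

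**Figure D1:**
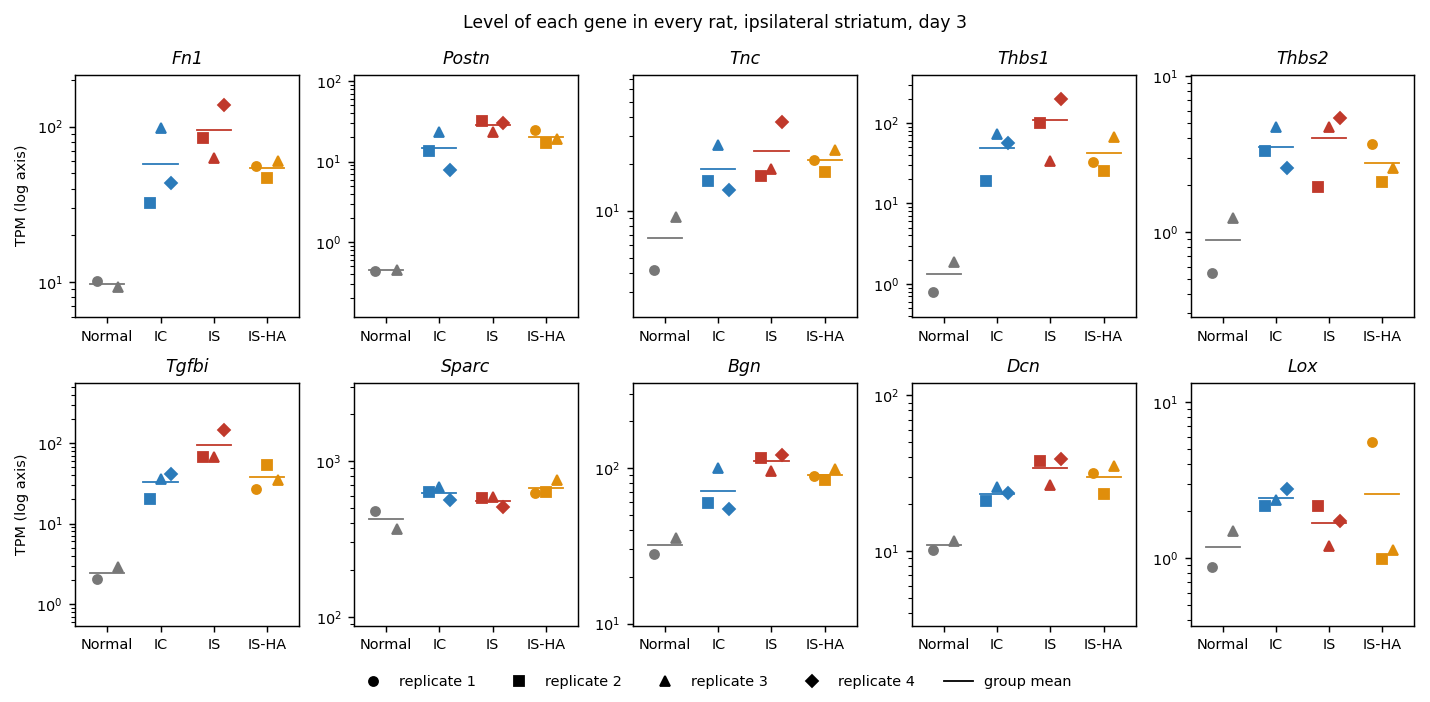
Level of each of the 10 genes in TPM on log axes, with 1 symbol per rat (its shape gives the replicate number) and a line at the group mean. Postn rises from 0.441 and 0.451 TPM in the Normal rats to between 7.88 and 32.3 TPM in the 9 hemorrhage rats, Sparc moves little, and Lox is high in 1 IS-HA rat only.

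Against Normal, 8 of the 10 genes rose in IC, in IS and in IS-HA alike, and none fell. A gene was called when the adjusted p of edgeR's quasi-likelihood test was under 0.05 and the log2 fold change at least 1 in size. The 8 were Fn1, Postn, Tnc, Thbs1, Thbs2, Tgfbi, Bgn and Dcn, while Sparc and Lox were not called. Of all 15742 genes tested, 10.9% were called higher in IC, 18.8% in IS and 15.1% in IS-HA, and 2.66%, 17% and 7.71% lower. Scaled by library size alone, 2045 genes were higher and 211 lower in IC, in place of 1720 and 418, and 2756 higher and 809 lower in IS-HA, in place of 2383 and 1213. The 10 genes had 8 calls in each group either way. Every IC rat was above both Normal rats in CPM for all 10 genes, beside 32.4% of all genes. The same held for every gene but Lox in IS, beside 37.6% of all genes, and in IS-HA, beside 31.7%. All 8 calls in IS held when any 1 rat was left out. In IC the calls were 4 without the Normal rat numbered 1, 3 without the Normal rat numbered 3 and 5 without the IC rat numbered 3. Of all genes, 1039, 793 and 1210 were called higher in these fits, in place of 1720, and 211, 28 and 97 lower, in place of 418. The median log2 fold change of the 10 genes was 1.68 in IC, 2.08 in IS and 1.65 in IS-HA, beside 0.00335, 0.0181 and 0.0557 over all genes. These 3 comparisons share the same 2 Normal rats and are not independent of each other.

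Postn and Tgfbi code for related secreted proteins built of fasciclin domains. Periostin is known from healing and fibrotic tissue, where fibroblasts secrete it, and the product of Tgfbi is made by many cells, macrophages among them, under TGF-beta. Postn read 13.8, 23.2 and 7.88 TPM in the IC rats, 32.3, 23.5 and 30.4 in the IS rats, and 24.6, 17.3 and 19.4 TPM in the IS-HA rats. Every hemorrhage rat was thus far above both Normal rats. Against Normal, its log2 fold change was 4.97 (SE 0.443, adjusted p = 0.000115) in IC, 6.01 (SE 0.457, adjusted p = 3.13e-05) in IS and 5.48 (SE 0.450, adjusted p = 6.44e-05) in IS-HA.

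Tgfbi read 2.03 and 2.88 TPM in the Normal rats. It read 20.5, 35.9 and 41.1 TPM in IC, 68.1, 66.5 and 148 in IS, and 26.8, 53.9 and 34.6 TPM in IS-HA. The 3 IS rats were the 3 highest of all rats, and the IS rat numbered 4 stood well above the other IS rats. Its log2 fold change was 3.69 (SE 0.594, adjusted p = 0.00181) in IC, 5.31 (SE 0.641, adjusted p = 0.000158) in IS and 4.02 (SE 0.603, adjusted p = 0.000915) in IS-HA. Per length, Tgfbi was 4.59 and 6.37 times the level of Postn in the 2 Normal rats and 1.09 to 5.22 times in the hemorrhage rats.

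Thrombospondins are large trimeric or pentameric glycoproteins. Thrombospondin 1 and 2 bind CD36 and CD47, restrain vessel growth and, when secreted by astrocytes, promote synapse formation. Thrombospondin 1 can also activate latent TGF-beta. Thbs1 read 0.787 and 1.87 TPM in Normal, 19.0, 72.0 and 56.9 in IC, 98.5, 33.9 and 198 in IS, and 32.9, 25.6 and 66.6 TPM in IS-HA. No hemorrhage rat overlapped a Normal rat, but the rats within each hemorrhage group were widely spread. These values gave a log2 fold change of 5.18 (SE 0.917, adjusted p = 0.00322) in IC, 6.43 (SE 0.970, adjusted p = 0.000549) in IS and 4.94 (SE 0.907, adjusted p = 0.00287) in IS-HA.

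Thbs2 was far lower and moved less. It read 0.545 and 1.23 TPM in Normal, 3.30, 4.71 and 2.59 in IC, 1.95, 4.73 and 5.36 in IS, and 3.66, 2.09 and 2.59 TPM in IS-HA. Its log2 fold change was 1.94 (SE 0.495, adjusted p = 0.0221) in IC, in IS 2.23 (SE 0.502, adjusted p = 0.00460) and in IS-HA 1.64 (SE 0.495, adjusted p = 0.0290). The ratio of Thbs1 to Thbs2 in TPM was 1.44 and 1.52 in the Normal rats and 5.76 to 50.6 in the hemorrhage rats, so the levels of the 2 paralogs lay further apart in every injured striatum. The Thbs2 call in IS-HA was lost without either Normal rat and without the IS-HA rat numbered 1, where its adjusted p over all settings ranged from 0.00624 to 0.173.

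Fibronectin links integrins on cells to collagen and fibrin, and also reaches tissue from plasma as a liver product that would leave no RNA here. Fn1 read 10.2 and 9.36 TPM in Normal, 32.3, 97.6 and 43.3 in IC, 85.1, 62.8 and 138 in IS, and 55.9, 47.0 and 59.9 TPM in IS-HA. The groups of injured rats all lay above Normal, and IS-HA was the narrowest of them. The log2 fold change was 2.48 (SE 0.473, adjusted p = 0.00494) in IC, 3.32 (SE 0.494, adjusted p = 0.000509) in IS and 2.45 (SE 0.473, adjusted p = 0.00375) in IS-HA.

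Tenascin-C is an anti-adhesive protein of developing brain that reactive astrocytes make again after injury. Tnc read 4.17 and 9.17 TPM in the Normal rats, which differed from each other more than for most of the 10 genes. It read 15.6, 26.5 and 13.5 TPM in IC, 16.7, 18.6 and 37.4 in IS, and 21.2, 17.8 and 24.5 TPM in IS-HA, all above Normal. The log2 fold change was 1.93 (SE 0.441, adjusted p = 0.00501) in IS and 1.67 (SE 0.436, adjusted p = 0.0162) in IS-HA. In IC it was 1.42 (SE 0.431, adjusted p = 0.0440), a call at the edge of the threshold whose adjusted p ranged from 0.00772 to 0.236 over all settings.

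Biglycan and decorin are the small leucine-rich proteoglycans of the group. Decorin binds TGF-beta as well as collagen, and free biglycan can act on Toll-like receptors. Bgn read 28.0 and 35.6 TPM in Normal, 59.5, 99.5 and 54.0 in IC, 115, 95.9 and 121 in IS, and 88.5, 84.0 and 98.6 TPM in IS-HA. Dcn read 10.2 and 11.6 TPM in Normal, 21.0, 25.7 and 23.5 in IC, 37.8, 26.6 and 38.9 in IS, and 31.7, 23.4 and 35.0 TPM in IS-HA. Both genes moved by like amounts with all rats, but in IC Bgn was more widely spread (71.0 ± 24.8 TPM) than Dcn (23.4 ± 2.35 TPM). Bgn had a log2 fold change of 1.09 (SE 0.242, adjusted p = 0.0108) in IC, 1.82 (SE 0.249, adjusted p = 0.000320) in IS and 1.50 (SE 0.246, adjusted p = 0.00153) in IS-HA. For Dcn it was 1.05 (SE 0.220, adjusted p = 0.00813) in IC, 1.68 (SE 0.225, adjusted p = 0.000289) in IS and 1.44 (SE 0.223, adjusted p = 0.00113) in IS-HA. Without the IC rat numbered 3 the IC value of Bgn was 0.82, under the fold cutoff, and that of Dcn 1.02. The ratio of Bgn to Dcn in TPM averaged 2.91 ± 0.239 (SD, n = 2) in Normal, 3.00 ± 0.798 (n = 3) in IC, 3.25 ± 0.309 in IS and 3.06 ± 0.453 in IS-HA, with overlapping ranges throughout.

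Sparc and Lox were the exceptions. Sparc read 479 and 365 TPM in Normal, 630, 679 and 560 in IC, 578, 587 and 505 in IS, and 627, 628 and 756 TPM in IS-HA. All 9 hemorrhage rats lay above both Normal rats, yet the differences were small beside those of the other genes. The log2 fold change was 0.49 (SE 0.203, adjusted p = 0.115) in IC, 0.40 (SE 0.202, adjusted p = 0.119) in IS and 0.65 (SE 0.204, adjusted p = 0.0336) in IS-HA, the last under the fold cutoff.

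Lox was near the limit of what these libraries can measure, with 6 to 65 counts per rat. It read 0.876 and 1.49 TPM in Normal, 2.15, 2.37 and 2.77 in IC, 2.16, 1.19 and 1.72 in IS, and 5.58, 0.984 and 1.13 TPM in IS-HA. The IC rats were above Normal, the IS rats overlapped Normal, and 1 IS-HA rat, numbered 1, stood above all others with 65 counts. The log2 fold change against Normal was 0.99 (SE 0.645, adjusted p = 0.300) in IC, 0.53 (SE 0.665, adjusted p = 0.530) in IS and 1.12 (SE 0.649, adjusted p = 0.200) in IS-HA. Without that rat the IS-HA value was -0.11, and the IC value was 0.99 with a smaller SE of 0.414 (adjusted p = 0.124).

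**Figure D2:**
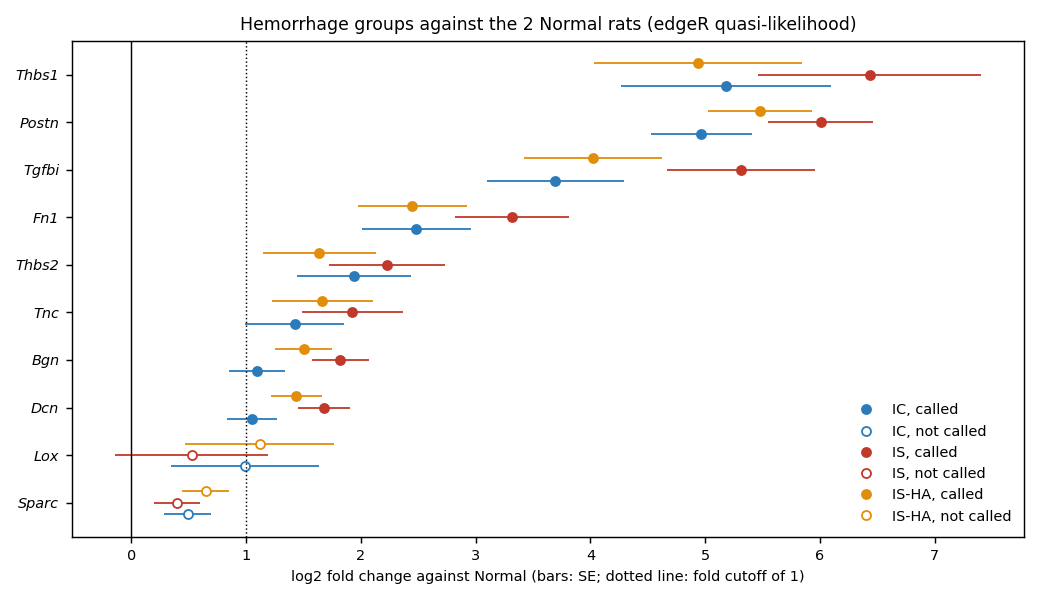
Log2 fold change of each gene against the 2 Normal rats, with its SE, in IC (blue), IS (red) and IS-HA (orange). Filled points were called, open points were not, and the dotted line is the fold cutoff. The 8 called genes run from Dcn at 1.05 in IC to Thbs1 at 6.43 in IS, and Sparc and Lox are open in all 3 groups.

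Promoter sequence was available for 5 of the 10 genes (Postn, Tnc, Sparc, Thbs1 and Tgfbi) from RefSeq on the GRCr8 assembly, 250 bases before to 50 after the annotated start. The 3 genes with the largest changes and Sparc, with the smallest, are shown 5′ to 3′ so that they can be compared. They lie at chr2:140677811-140678110 on the plus strand (Postn), chr3:125510000-125510299 on the plus strand (Thbs1), chr17:7990064-7990363 on the minus strand (Tgfbi) and chr10:40038767-40039066 on the minus strand (Sparc). Capitals mark a match, on either strand, to TATAAA or GGAATG.
Postn: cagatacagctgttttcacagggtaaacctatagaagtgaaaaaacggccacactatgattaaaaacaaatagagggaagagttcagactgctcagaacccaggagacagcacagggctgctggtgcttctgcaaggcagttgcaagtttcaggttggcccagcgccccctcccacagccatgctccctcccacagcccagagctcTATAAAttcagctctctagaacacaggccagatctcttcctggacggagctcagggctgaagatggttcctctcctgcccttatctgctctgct
Thbs1: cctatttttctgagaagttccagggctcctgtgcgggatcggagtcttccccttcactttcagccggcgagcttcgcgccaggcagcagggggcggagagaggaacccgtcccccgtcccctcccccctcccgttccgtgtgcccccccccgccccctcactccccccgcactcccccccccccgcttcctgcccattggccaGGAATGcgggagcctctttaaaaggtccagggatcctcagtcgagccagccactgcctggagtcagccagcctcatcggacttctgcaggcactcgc
Tgfbi: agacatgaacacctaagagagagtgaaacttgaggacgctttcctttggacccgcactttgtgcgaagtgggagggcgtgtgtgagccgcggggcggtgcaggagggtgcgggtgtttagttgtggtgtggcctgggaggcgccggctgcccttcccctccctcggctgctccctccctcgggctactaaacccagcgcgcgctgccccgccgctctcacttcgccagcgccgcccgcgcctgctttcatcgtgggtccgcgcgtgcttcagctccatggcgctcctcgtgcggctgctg
Sparc: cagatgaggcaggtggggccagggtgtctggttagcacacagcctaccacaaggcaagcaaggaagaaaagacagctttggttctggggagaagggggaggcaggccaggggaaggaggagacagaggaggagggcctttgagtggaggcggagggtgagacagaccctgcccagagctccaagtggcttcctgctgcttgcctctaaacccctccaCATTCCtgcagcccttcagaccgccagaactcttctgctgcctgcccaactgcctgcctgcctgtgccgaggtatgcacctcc

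The 4 motifs given here were searched on both strands of these windows. TATAAA, a hexamer of TATA boxes, was matched in Postn at -44 to -39 and in Tnc at -208 to -203 from the start. It was found in 14.2% of all 33469 promoters of the same length. Only exact matches were counted, so the variant TATATAA, nearer the start in the Tnc window, was not. GGAATG, the core bound by TEAD factors, was found in Thbs1 at -47 to -42 and, on the other strand, in Sparc at -33 to -28, and in 14.2% of all promoters. TGANTCA, the AP-1 site (7.33% of promoters), and the CArG box of serum response factor (1.64%) had no match in the 5 windows. Tgfbi had none of the 4. No motif was shared by the 3 genes with the largest changes, and matches did not overlap each other.

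The comparison of IS with IC asks whether the severe model came with higher matrix gene levels than the common one. IS rats were given 0.6 U of collagenase in 3.0 μL and IC rats 0.2 U in 1.0 μL. Hemorrhage size therefore cannot be told apart from the dose of this enzyme or the injected volume. None of the 10 genes was called (0% of all genes were called higher), while 8 of 10 had a positive log2 fold change, with a median of 0.68 beside -0.00103 over all genes. At an unadjusted p under 0.05 and the same fold cutoff, Postn and Tgfbi passed, beside 3.37% of all genes higher. In CPM, the counts scaled to a common library size by TMM, every IS rat was above every IC rat for Postn, Tgfbi, Bgn and Dcn, beside 19.2% of all genes. In TPM this held for Postn, Tgfbi and Dcn, each with a two-sided exact permutation p of 0.1, the smallest that 3 against 3 rats can give, while Bgn overlapped.

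Tgfbi had the largest difference between IS and IC, a log2 fold change of 1.62 (SE 0.450, adjusted p = 0.148). For Postn it was 1.04 (SE 0.289, adjusted p = 0.148), for Bgn 0.73 (SE 0.209, adjusted p = 0.149) and for Dcn 0.63 (SE 0.190, adjusted p = 0.155). For these 4 genes the IS and IC rats did not overlap in CPM, but none passed the adjustment over all genes in edgeR's test. Thbs1 at 1.25 (SE 0.633, adjusted p = 0.260) and Fn1 at 0.83 (SE 0.384, adjusted p = 0.228) had positive values with overlapping rats. Tnc at 0.50, Thbs2 at 0.29, Sparc at -0.09 and Lox at -0.46 had adjusted p of 0.407 to 0.767.

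Whether Postn and Tgfbi were called between IC and IS depended on the method and on a rat of neither group. DESeq2's Wald test called both, with adjusted p of 0.0288 for Postn and 0.0180 for Tgfbi, beside 1.7% of all genes higher. The voom method of limma, with rats weighted by quality, called both as well (adjusted p = 0.0258 and 0.0328), beside 2.15% of all genes. So did the quasi-likelihood test without the IS-HA rat numbered 2 (adjusted p = 0.0415 and 0.0296), beside 2.19% of all genes. In that fit the log2 fold changes were 1.03 and 1.62, beside 1.04 and 1.62 with the rat. Data were also simulated with changes of 1 on the log2 scale in IS. Against IC, 19.3% of DESeq2's hits there were false, 7.69% of edgeR's and 4.88% of voom's.

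The IS rat numbered 4 carried part of the IS values. In CPM it was the highest of the 11 rats for 8 of the 10 genes, Sparc and Lox being the exceptions. Without it the log2 fold change of IS against IC was 1.06 for Tgfbi and 0.94 for Postn, but 0.42 for Thbs1, 0.39 for Fn1 and -0.021 for Tnc and -0.023 for Thbs2. This rat also had the highest summed level of the monocyte and macrophage markers (4439 TPM, against 2381 and 2633 in the other IS rats) and the lowest of the neuron markers (1460 against 2467 and 3816 TPM). The part of these markers in the result was not tested. Among IC rats the one numbered 3 had the highest Fn1, Postn, Tnc, Thbs1, Thbs2, Sparc, Bgn and Dcn in TPM and the lowest neuron sum (2974 against 5774 and 5960 TPM), and without it the log2 fold change of IS against IC was 1.46 for Postn, 1.37 for Fn1 (adjusted p = 0.129), 0.80 for Tnc and 0.51 for Thbs2.

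The comparison of IS-HA with IS asks whether removal of the hematoma came with lower levels. No sham aspiration of IS rats is described. Removal of the hematoma therefore cannot be told apart from the second anesthesia and the passage of the catheter. None of the 10 genes was called, beside 0% of all genes lower and 0.00635% higher, and 8 of 10 had a negative log2 fold change, with a median of -0.42 beside 0.0452 over all genes. Every IS-HA rat lay below every IS rat in CPM for Fn1, Postn and Tgfbi, beside 5.42% of all genes. In TPM this held for Fn1 and Tgfbi, each with an exact permutation p of 0.1. Sparc went the other way in TPM, with every IS-HA rat (627 to 756 TPM) above every IS rat (505 to 587 TPM) and the same exact permutation p of 0.1, but the rats overlapped in CPM. Thbs1 had a log2 fold change of -1.49 (SE 0.638, adjusted p = 0.551), Tgfbi of -1.29 (SE 0.447, adjusted p = 0.540), Fn1 of -0.87 (SE 0.384, adjusted p = 0.556) and Postn of -0.53 (SE 0.288, adjusted p = 0.577).

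The remaining differences after aspiration were smaller. Thbs2 had a log2 fold change of -0.59, Bgn of -0.32, Tnc of -0.26 and Dcn of -0.24, against 0.25 for Sparc and 0.59 for Lox, with adjusted p of 0.629 to 0.843. At an unadjusted p under 0.05 with the fold cutoff, Thbs1 and Tgfbi passed, beside 0.908% of all genes lower. Tgfbi alone was called by voom (log2 fold change -1.40, adjusted p = 0.0490, beside 0.603% of all genes lower) and by the quasi-likelihood test without the IS-HA rat numbered 2 (-1.80, adjusted p = 0.0491, beside 0.541%). DESeq2's Wald test called none of the 10 genes lower, beside 0.127% of all genes. Without the IS rat numbered 4 the values were -0.66 for Thbs1, -0.73 for Tgfbi, -0.43 for Fn1, -0.28 for Thbs2, -0.20 for Bgn, -0.087 for Dcn and 0.26 for Tnc. The Lox value turned to -0.64 without the IS-HA rat numbered 1.

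**Figure D3:**
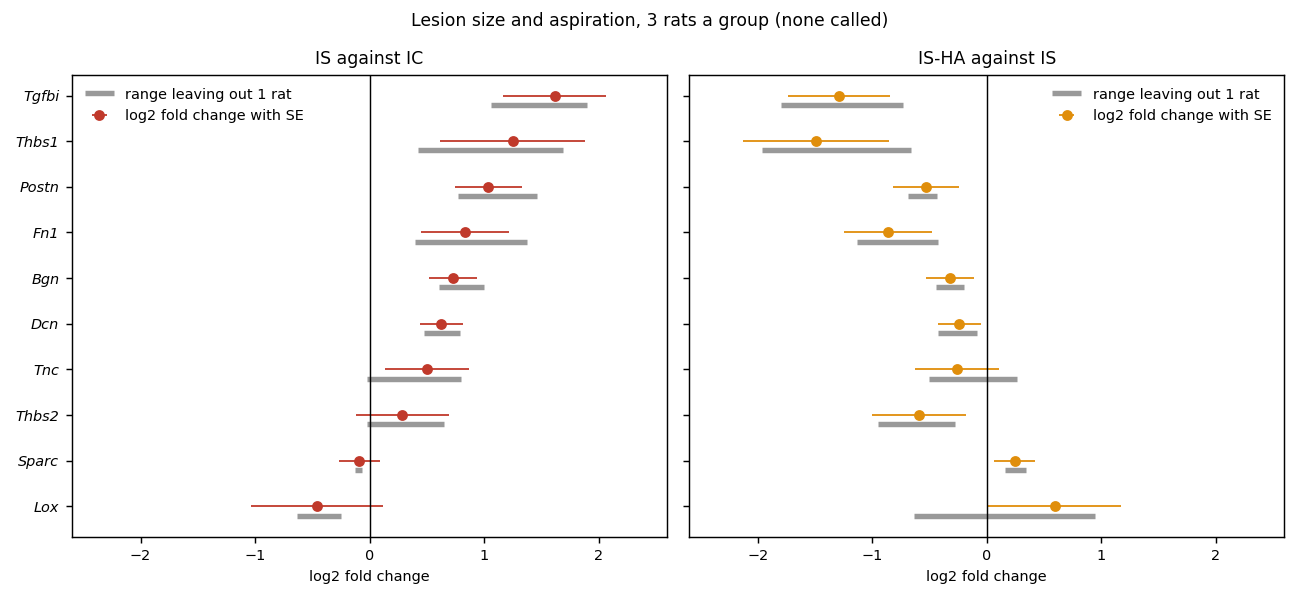
Log2 fold change with SE of each gene for IS against IC (left) and IS-HA against IS (right), 3 rats a group; grey bars span the values when 1 rat at a time is left out. Tgfbi, Thbs1, Postn and Fn1 are to the right of 0 on the left and to the left of 0 on the right, and the grey bars of Thbs2 and Tnc on the left, and of Tnc and Lox on the right, cross 0.

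The 2 comparisons share the IS rats, so that a high value in IS moves both at once. A comparison that leaves IS out is IS-HA against IC. There the log2 fold changes ran from -0.30 for Thbs2 to 0.51 for Postn and none was called, beside 0% of all genes. With all rats, none had an unadjusted p under 0.05 in edgeR's test. In voom Bgn, Postn and Dcn had unadjusted p of 0.0112, 0.0156 and 0.0166 (adjusted p = 0.335 to 0.381). None of the 10 genes had an adjusted p under 0.05 in any alternative, DESeq2's Wald test among them. Single rats moved the log2 fold changes widely. Without the IC rat numbered 3 Postn was at 0.93 and Bgn at 0.68 in place of 0.41. Their unadjusted p in edgeR's test were then 0.00356 and 0.00389 (adjusted p = 0.646). Without that rat Fn1 was at 0.51 in place of -0.033 and Thbs1 at 0.061 in place of -0.24. Tgfbi went from 0.33 to -0.18 without the IS-HA rat numbered 2. Lox went from 0.13 to -1.10 without the IS-HA rat numbered 1 (unadjusted p = 0.0357, adjusted p = 0.461). Dcn was the only gene of the 10 with every IS-HA rat above every IC rat in CPM (0.39, SE 0.190, adjusted p = 0.841), beside 4.66% of all genes. In TPM Dcn overlapped. Against Normal, the IS-HA rats still had all 8 calls described above.

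Relatives of the 10 genes by sequence or family did not move as one. Of 29 listed, 22 were tested, and in IS against Normal 8 rose and 5 fell, beside 18.8% of all genes higher and 17% lower, with a median log2 fold change of 0.76. Tnr, the tenascin of myelinating glia and perineuronal nets, fell from 23.2 ± 11.3 TPM (SD, n = 2) in Normal to 1.69 ± 0.903 TPM (n = 3) in IS, a log2 fold change of -3.75 (SE 0.484, adjusted p = 0.000233), where its relative Tnc rose. Spock3, a brain proteoglycan with a SPARC-like domain, fell from 256 ± 58.2 to 40.1 ± 19.0 TPM (-2.66, SE 0.552, adjusted p = 0.0030). Stab1, a scavenger receptor of macrophages that takes up SPARC and has fasciclin domains, rose from 4.29 ± 0.426 to 45.7 ± 12.5 TPM (3.44, SE 0.333, adjusted p = 5.28e-05). Tnn rose as well (adjusted p = 0.0324), but only to 0.385 ± 0.277 TPM.

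Other matricellular and glycoprotein genes rose more uniformly, 15 of 26 tested in IS with none falling and a median of 1.50. Of all genes 18.8% were called higher and 17% lower. Spp1, osteopontin, which activated macrophages and microglia secrete, rose from 2.28 ± 1.82 to 9438 ± 5197 TPM (12.08, SE 1.06, adjusted p = 3.57e-05), far above any of the 10 genes. Mgp, an inhibitor of calcification, rose from 21.1 ± 8.08 to 189 ± 22.4 TPM (3.17, SE 0.466, adjusted p = 0.000473). Emilin2, an elastic fiber glycoprotein, rose from 3.28 ± 0.252 to 44.7 ± 19.4 TPM (3.80, SE 0.522), and Ltbp2, of the latent TGF-beta binding family, from 0.210 ± 0.0739 to 3.67 ± 1.14 TPM (4.14, SE 0.472).

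Lox itself was not called, but 11 of 17 matrix crosslinking and processing enzymes rose in IS and none fell. The median of the enzymes was 1.48, and of all genes 18.8% were called higher and 17% lower. Loxl2, a lysyl oxidase relative, rose from 1.22 ± 0.319 to 6.16 ± 1.71 TPM (2.35, SE 0.459, adjusted p = 0.00216). The transglutaminase Tgm2 rose from 7.68 ± 5.14 to 82.0 ± 31.9 TPM (3.42, SE 0.558, adjusted p = 0.000830), and F13a1, the transglutaminase subunit of clotting factor XIII, which macrophages also express, from 1.47 ± 0.592 to 19.5 ± 7.69 TPM (3.78, SE 0.629, adjusted p = 0.000919). Pcolce, which enhances procollagen cleavage, rose from 3.12 ± 0.888 to 23.4 ± 3.70 TPM (2.93, SE 0.485, adjusted p = 0.000898).

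Of 20 receptors for the 10 proteins, 9 rose and 3 fell in IS, beside 18.8% of all genes higher and 17% lower. Their median was 1.40. Itga5, the fibronectin receptor subunit, rose from 1.66 ± 0.0625 to 26.7 ± 5.41 TPM (4.03, SE 0.404, adjusted p = 6.05e-05). Cd44, a hyaluronan receptor that also binds osteopontin, rose from 5.50 ± 1.09 to 94.5 ± 24.4 TPM (4.14, SE 0.430, adjusted p = 7.22e-05), and the syndecan Sdc1 from 0.757 ± 0.263 to 185 ± 71.1 TPM (7.96, SE 0.610, adjusted p = 3.13e-05). Cd36, a thrombospondin receptor, was listed at 0 and 0.0199 TPM in the Normal rats and at 0.415 to 3.59 TPM in IS (adjusted p = 0.0149), so no fold is given for it.

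Genes of the matrix of healthy brain had a negative median. Of 12 brain matrix and perineuronal net genes, 2 rose and 4 fell in IS, with a median of -1.07, beside 18.8% of all genes higher and 17% lower. Without the Normal rat numbered 3 the calls were 3 in all. Of all genes, 2109 were then called higher and 1524 lower, in place of 2959 and 2674. Has3, a hyaluronan synthase, went from 2.46 ± 0.877 TPM in Normal to between 0 and 0.239 TPM in IS (adjusted p = 0.000595). Vcan, versican, rose from 10.5 ± 1.74 to 35.1 ± 10.7 TPM (1.77, SE 0.292, adjusted p = 0.000886), and Has2, another hyaluronan synthase, from 0.591 ± 0.168 to 2.08 ± 0.513 TPM (1.81, SE 0.389, adjusted p = 0.00362).

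In IC against Normal the 5 related lists had fewer calls than in IS, as had all genes, and these rested more on single rats. Of the relatives 6 rose and 1 fell, of the other matricellular genes 11 rose, of the enzymes 7, of the receptors 8, and of the brain matrix genes 2 rose and 1 fell, beside 10.9% of all genes higher and 2.66% lower. Without the Normal rat numbered 3 the calls were 3, 4, 1, 4 and 0 in that order. Of all genes, 793 were then called higher and 28 lower, in place of 1720 and 418. In IS-HA 6 relatives rose and 3 fell, 12 other matricellular genes and 10 enzymes rose, 8 receptors rose and 1 fell, and 2 brain matrix genes rose and 2 fell, beside 15.1% of all genes higher and 7.71% lower. Without the Normal rat numbered 3 the relatives had 2 calls, the enzymes 5 and the brain matrix genes 2, and without the Normal rat numbered 1 the enzymes had 6. Of all genes, 1205 were called higher and 324 lower in IS-HA in the first of these fits. In the second they were 1642 and 792, and with all rats 2383 and 1213. No gene of the 5 related lists was called in IS against IC or in IS-HA against IS.

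**Figure D4:**
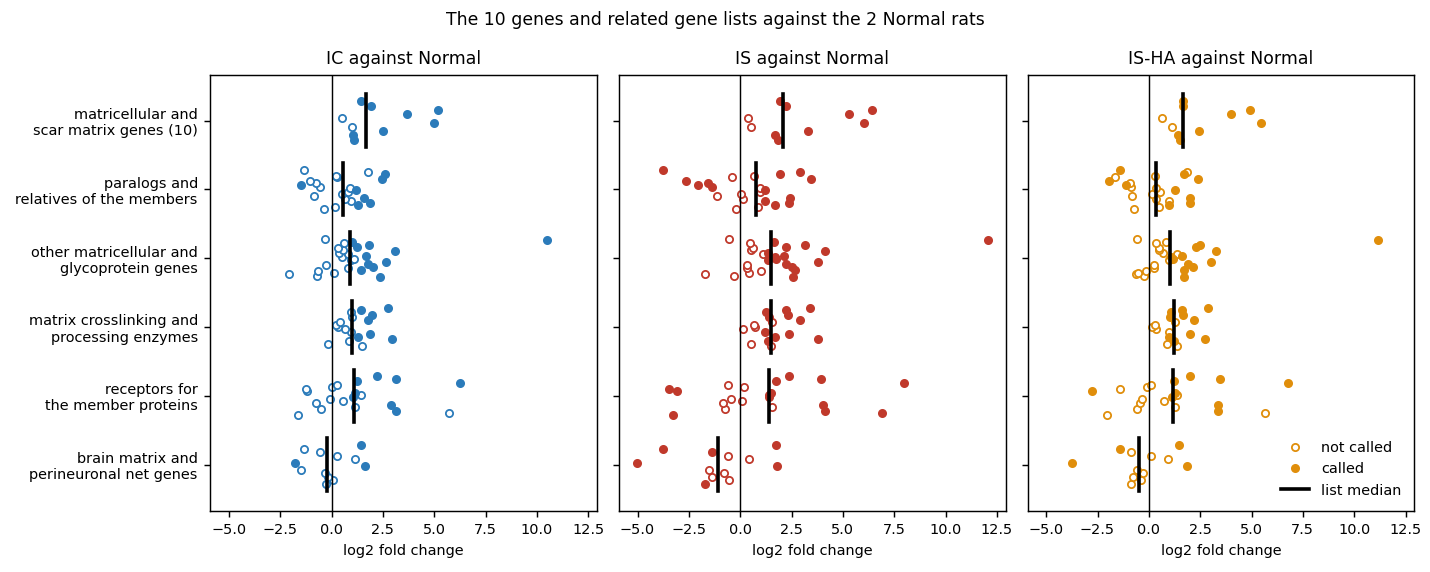
Log2 fold change against the 2 Normal rats of every tested gene in the 10-gene group and 5 related lists, for IC, IS and IS-HA. Filled points were called, open points were not, and black bars are list medians. In IS the medians are 2.08 for the 10 genes, 1.50 for other matricellular genes, 1.48 for enzymes, 1.40 for receptors, 0.76 for relatives and -1.07 for brain matrix genes.

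Markers of several cell types that can make these proteins differed between the groups, though not all in the same direction. The summed level of 8 fibroblast and leptomeningeal markers ran from 86.8 to 116 TPM in Normal, 151 to 258 in IC, 185 to 309 in IS and 104 to 232 TPM in IS-HA. In each group 4 of the 8 rose, beside 10.9% of all genes in IC, 18.8% in IS and 15.1% in IS-HA. Of the 8 markers, Col3a1, a fibrillar collagen, averaged 5.77 TPM in Normal and 69.5 in IS, while Slc6a13 and Igf2 averaged 6.35 and 32.2 TPM in Normal and 7.90 and 19.2 TPM in IS. The 8 pericyte and smooth muscle markers summed to 204 to 219 TPM in Normal, 543 to 866 in IC, 908 to 1295 in IS and 606 to 937 TPM in IS-HA. Most of that sum in hemorrhage was Tagln, an actin-binding protein, at 918 TPM in IS, while the pericyte marker Rgs5 went from 91.7 TPM in Normal to 25.6 in IS. Of this list 2 were called higher in each hemorrhage group, beside the shares above. In IS and in IS-HA 1 was called lower, beside 17% and 7.71% of all genes. The median log2 fold change of the list was -0.18 in IC, 0.48 in IS and -0.12 in IS-HA.

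The 8 microglia and macrophage markers all rose in each hemorrhage group, from a sum of 315 to 462 TPM in Normal to 2300 to 3087 in IC, 4234 to 5434 in IS and 3061 to 5113 TPM in IS-HA. The 6 infiltrating monocyte and macrophage markers found also rose in each group, from a sum of 13.7 to 15.1 TPM in Normal to 836 to 2113 in IC, 2381 to 4439 in IS and 1573 to 2406 TPM in IS-HA, led by Gpnmb. The neutrophil list summed to 4.91 to 5.11 TPM in Normal, 83.3 to 267 in IC, 494.5 to 696 in IS and 168 to 858 TPM in IS-HA, and all 5 of its genes tested rose. Of all genes 10.9% were called higher in IC, 18.8% in IS and 15.1% in IS-HA.

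The astrocyte list summed to 3111 to 3183 TPM in Normal, 6204 to 8674 in IC, 3561 to 6384 in IS and 4871 to 6484 TPM in IS-HA. Of its 7 genes 1 rose and 1 fell in each group. Of all genes 10.9%, 18.8% and 15.1% were called higher in IC, IS and IS-HA, and 2.66%, 17% and 7.71% lower. In IS 6 of the 7 had a negative log2 fold change. Most of the sum in hemorrhage was Gfap. Slc1a2, the gene that fell, averaged 246 TPM in Normal, 68.1 in IC, 18.1 in IS and 56.2 TPM in IS-HA. Gfap, the intermediate filament of astrocytes, averaged 401 TPM in Normal, 4484 in IC, 3545 in IS and 3483 TPM in IS-HA, while the water channel Aqp4 averaged 288, 460, 199.6 and 337 TPM in the same order. The platelet list summed to 7.22 to 9.84 TPM in Normal and 167 to 782 TPM in IS. That sum was almost wholly Pf4, which averaged 428 TPM in IS, while the platelet genes Ppbp and Gp9 averaged 0.192 and 0.140 TPM and Gp1ba was at 0 in the 3 IS rats. The neuron list summed to 7450 to 7605 TPM in Normal, 2974 to 5960 in IC, 1460 to 3816 in IS and 2215 to 3864 TPM in IS-HA. The part of these cell types in the levels of the 10 genes was not tested.

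**Figure D5:**
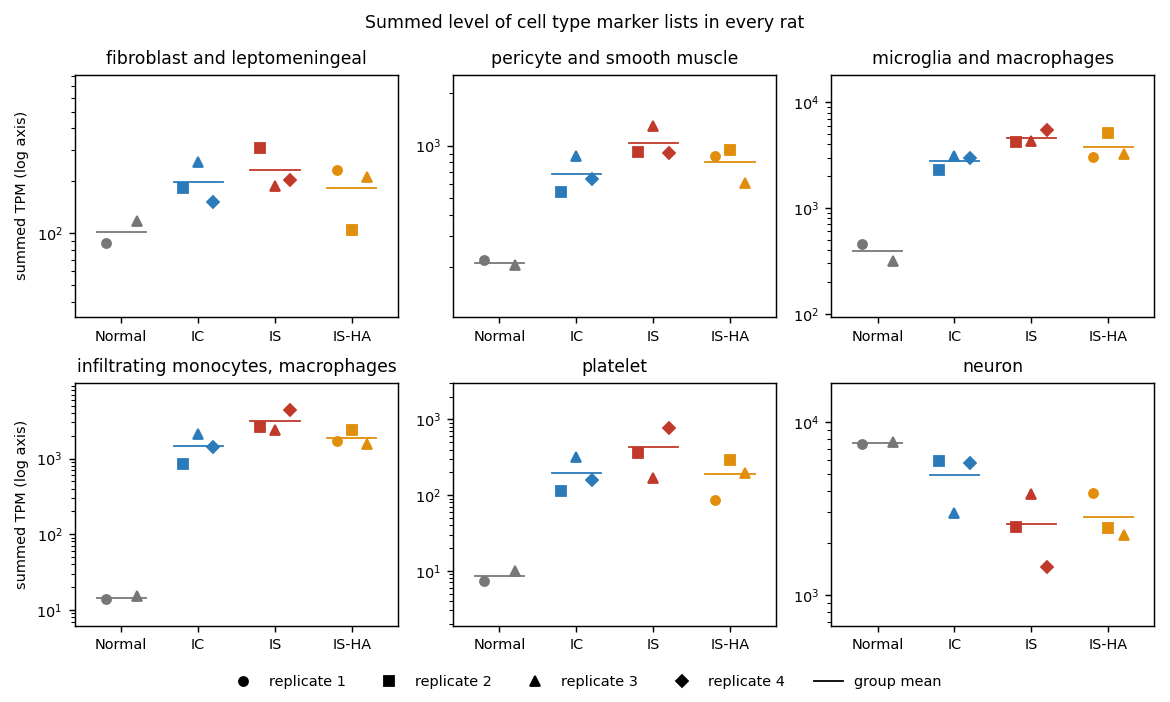
Summed TPM of 6 cell type marker lists in each rat on log axes, with a line at the group mean. The macrophage lists are highest in the IS rat numbered 4 (5434 and 4439 TPM), where the neuron list is lowest (1460 TPM).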

How the data were processed

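RNA sequencing of 11 rats was analysed. Per the labels, the authors made stranded libraries of poly(A) RNA, read 150 bases from each end, and in their processing notes name fastp 0.20.0, HISAT2 2.1.0, SAMtools 1.9, featureCounts and mRatBN7.2. The strand setting and annotation version are not given in the sources used here, so overlapping antisense transcripts may add to a gene. The deposited values were whole-number counts per gene, without normalization, and TPM, which the authors scaled per rat. The study gives 3 rats per group, and 2 Normal rats were analysed here.

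Counts of all 4 groups were fitted together with edgeR 4.0.16 in R 4.3.3 (filterByExpr, TMM, quasi-likelihood F test, Benjamini-Hochberg adjustment over 15742 genes, common dispersion 0.0691). SEs are the absolute log2 fold change over the square root of F. CPM are TMM-normalized. TPM were used for levels, ratios and exact permutation tests. DESeq2 1.42.0, limma 3.58.1, other filters and scalings, and each rat left out were alternatives. In simulated data with 200 changed genes, every gene was drawn at the common dispersion. A hit there was an adjusted p under 0.05 with no fold cutoff, unlike the calls above. The edgeR test of IS against IC recovered 24% of changes of 1 on the log2 scale and 99.5% of changes of 2. At the smallest library, 3 counts are 0.448 CPM, a limit of counting error only.

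All 10 genes and, from each related list, up to 4 called genes with the largest change in IS against Normal were named, with marker genes at 0 or leading their list. Col3a1, Slc6a13, Igf2, Rgs5, Slc1a2 and Aqp4 were named after their values were seen. The genes, lists and motifs were chosen with earlier results of these data known. RefSeq sequences are from GRCr8, not the build of the counts. Protein sequences were not used here. The plots were drawn with matplotlib 3.10.9.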

Additional observations from a re-analysis of the deposited data

How the results depend on the processing

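In the comparisons with Normal, all 8 calls among the 10 genes held in IS when any 1 rat was left out. In IC 3 to 8 were called (4 without the Normal rat numbered 1, 3 without the Normal rat numbered 3, 5 without the IC rat numbered 3) and in IS-HA 6 to 8. Of all genes, 1039, 793 and 1210 were called higher in these IC fits, in that order, in place of 1720. In IS against IC 0 to 2 were called, in IS-HA against IS 0 to 1, and 2 in each at an unadjusted p with the fold cutoff. DESeq2's Wald test called 2 and voom 2 in IS against IC, and voom 1 in IS-HA against IS. With 1 rat left out, direction turned for Lox in IS-HA against Normal (-0.11 to 1.47) and against IS (-0.64 to 0.94), lowest without the IS-HA rat numbered 1. It turned without the IS rat numbered 4 for Tnc (-0.021 to 0.80) and Thbs2 (-0.023 to 0.65) in IS against IC and for Tnc in IS-HA against IS (-0.50 to 0.26), where voom gave 0.068. In IS-HA against IC, where no gene was called, it turned for Fn1 (-0.33 to 0.51), Lox (-1.10 to 0.49), Thbs1 (-0.67 to 0.061) and Tgfbi (-0.18 to 0.61) with 1 rat left out. Voom gave 0.25 for Fn1, -0.064 for Lox, 0.14 for Thbs1 and -0.088 for Tgfbi there, and limma on log2(TPM + 1), with or without a filter, 0.064 for Fn1 and -0.18 for Lox, or 0.068 and -0.36 with a pseudocount of 0.1. Over the genes named, 1724 alternative values kept direction and side of the threshold, 44 lost and 8 gained a call, and 25 turned. Where no value above shows a cause, the cause was not tested.

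Same-numbered rats are different animals, and their deviations from the group means had correlations from -0.475 to 0.356 over 11 pairs (mean -0.0750), against a mean of 0.0249 over 34 pairs with other numbers. With the replicate number as a block, 4 of the 10 genes were called in IC against Normal, and Tnc in IS-HA against IS turned to 0.13, as did, in IS-HA against IC, Fn1 to 0.11, Lox to -0.41 and Thbs1 to 0.38. In IC against Normal the block left 1 call among relatives, 5 among other matricellular genes, 3 among enzymes and 0 among brain matrix genes, and in IS-HA against Normal 5 among relatives. Of all genes, the block left 824 higher and 15 lower in IC, in place of 1720 and 418. In IS-HA it left 1657 and 584, in place of 2383 and 1213.

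Scaling by library size alone put the median log2 fold change of all genes against Normal at 0.14 in IC, 0.15 in IS and 0.18 in IS-HA. With TMM these medians were 0.00335, 0.0181 and 0.0557. Library size alone also gave 2045 genes higher and 211 lower in IC in place of 1720 and 418, and called 11 enzymes there. With no fold cutoff 11 enzymes passed in IC. In IC against Normal, limma on log2(TPM + 1) called 4 relatives and 1 brain matrix gene, with no filter 4 relatives, 7 other matricellular genes and 1 brain matrix gene. Fitting only the compared groups called 13 receptors and 6 brain matrix genes in IC, and 4 relatives in IS-HA. Voom called 6 and the unadjusted p 5 brain matrix genes in IC. In IS-HA limma on log2(TPM + 1) called 5 relatives, with and without a filter, and 2 brain matrix genes, as with a pseudocount of 0.1, and in IS 3 brain matrix genes. With 1 rat left out, calls in IC ran from 2 to 8 for relatives, 4 to 13 for other matricellular genes, 1 to 10 for enzymes, 4 to 13 for receptors and 0 to 5 for brain matrix genes. In IS-HA they ran from 2 to 9 for relatives, 5 to 11 for enzymes and 2 to 5 for brain matrix genes, and in IS from 3 to 8 for brain matrix genes. Over all genes, those called higher with 1 rat left out ran from 793 to 2030 in IC, 2109 to 3136 in IS and 1205 to 2669 in IS-HA. Lox had too few counts to be tested with at least 10 counts in every rat. Few reads stand behind Lox, with 6 to 65 counts per rat, and behind the Normal values of Postn, with 12 counts each.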
